A study of Arabidopsis thaliana with 16 samples.

Results

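SIM (SIAMESE, locus AT5G04470), its relative AT1G08180 and GIS (GLABROUS INFLORESCENCE STEMS, locus AT3G58070) are 3 regulators of trichome and cell cycle behaviour in Arabidopsis thaliana. They were chosen by name or locus, with earlier results of these data known. Each is paired with 1 probe set that names no other gene, 250844_at for SIM, 261817_at for AT1G08180 and 251586_at for GIS. These are 3 of 22810 probe sets on the array, and all 3 passed the filter on dim probe sets that left 17059 for testing. The study looked for genes that react within hours to a DELLA protein. Its 16 single-colour arrays hold shoots of 8-day-old Landsberg erecta seedlings, 1 array per sample. The gibberellin GA4 (2 µM) was applied to all seedlings 16 h beforehand and again at the start.

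The rga line carries a dexamethasone (DEX) inducible rga-delta17, a dominant DELLA form that gibberellin does not remove. It was profiled 2 h after GA4 plus 10 µM DEX (3 biological replicates) and after GA4 alone, called mock (3), and 4 h after GA4 plus DEX (3) and after mock (3). The vector line carries the same DEX-inducible construct with an empty cassette, and was profiled only at 4 h, with GA4 plus DEX (2) and with mock (2). Thus every group, mock included, had received gibberellin, and every DEX group had received it together with DEX. The number of independent transformants behind each line is not given in the sources used here. Whether DEX induced the transgene was not examined here.

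SIM codes for a plant-specific inhibitor of cyclin-dependent kinases. It promotes the switch from mitosis to the endocycle, in which cells copy their DNA without dividing, and trichomes that lack it become multicellular. GIS is a C2H2 zinc finger transcription factor that acts in the gibberellin pathway of trichome initiation on inflorescence organs, upstream of the trichome MYB gene GL1. Gibberellin promotes trichome formation in Arabidopsis, and DELLA proteins restrain gibberellin responses.

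The vector DEX arrays stood apart from the rest. Over the probe sets tested their correlation with the other 14 was 0.789 to 0.884, whereas it was 0.916 to 0.975 among those 14. Their array medians were 138 and 141, against 167 to 193 elsewhere, and their 25S rRNA control signals were 12528 and 13088, against 422 and 526 for vector mock and 391 to 2046 for the rga line. None of the 7 photosynthetic genes listed as shoot markers is paired with a probe set here. Of 3 light-harvesting genes looked up afterwards, LHCB4.1 had signals of 11411 and 12160 on the vector DEX arrays, against 12812 to 16686 on the other 14. LHCB4.2 had 484 and 574, against 1749 to 3187, and LHCB4.3 had 402 and 765, against 660 to 1429. Of 9 root markers 3 could be read: the root hair expansin genes EXPA7 (22.1 to 183) and EXPA18 (50.5 to 198) and the glucosidase gene PYK10 (5464 to 8100). Their summed signal was 7665 to 8347 in rga 2 h DEX, 6697 to 7690 in rga 2 h mock, 6387 to 7568 in rga 4 h DEX, 6296 to 7170 in rga 4 h mock, 5580 to 7098 in vector DEX and 6945 to 7226 in vector mock. PYK10 made up nearly all of each sum, so the sums say little about the root hair genes. None of the 3 was called for DEX in either line, although EXPA7 and EXPA18 were called higher in rga mock than in vector mock, by 1.58 and 0.99 on the log2 scale. Between the lines in mock, 17.6% of all probe sets tested were called, 1966 higher and 1028 lower. The EXPA7 and EXPA18 calls were both lost after quantile normalization (0.87 and 0.54). Both were also lost without rga 4 h mock replicate 2 or replicate 3, or without vector mock replicate 2. The EXPA7 call was lost without vector mock replicate 1 as well, and the EXPA18 call without rga 4 h mock replicate 1. Of 9 alternative settings, 5 kept the EXPA7 call and 4 the EXPA18 call. Without single arrays the values ran from 1.32 to 1.94 and from 0.52 to 1.45. After centring on array medians the EXPA18 call between the lines was lost (0.83), and EXPA18 was called higher with DEX in the vector line (0.99). The part of any of these shifts in the results on SIM, AT1G08180 and GIS was not tested.

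SIM was higher with DEX than with mock in the rga line. At 2 h its signals (deposited MAS5 intensities on a linear scale) were 259, 271 and 361 on the DEX arrays, against 233, 168 and 228 on the mock arrays. At 4 h they were 321, 285 and 326 with DEX, against 210, 179 and 257 in mock. All 6 DEX arrays thus lay above all 6 mock arrays of both times, the nearest values being 259.2 with DEX and 256.6 in mock. Of the probe sets tested, 3.01% had that order. In bulk shoots, more SIM-expressing cells and more SIM RNA per cell cannot be told apart.

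Averaged over both times, SIM rose by 0.52 ± 0.12 on the log2 scale (SE), a 1.44-fold difference with a 95% interval of 0.27 to 0.78 and an adjusted p of 0.00874 (limma over all 17059 probe sets, Benjamini-Hochberg adjusted; calls were made below 0.05). Of all probe sets tested, 5.69% were called higher in that comparison. A rise at least as large was seen in 4.57% of them. SIM thus lay in the upper tail of the rga line's DEX effects, in place 540 by size among the 970 probe sets called higher.

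Taken singly, neither time passed the threshold without a replicate block (4 h did with a block on replicate number within line, adjusted p = 0.0398). The log2 change was 0.50 ± 0.17 at 2 h (adjusted p = 0.136) and 0.54 ± 0.17 at 4 h (adjusted p = 0.0846; 0.68 and adjusted p = 0.0451 without rga 4 h mock replicate 3), while 4.14% and 5.16% of the probe sets were called in these comparisons. The effect at 4 h minus that at 2 h was 0.04 ± 0.24, with a 95% interval of -0.47 to 0.55. Both times gave an estimate of like size, but differences within that interval were not detectable with 3 arrays a group.

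**Figure D1:**
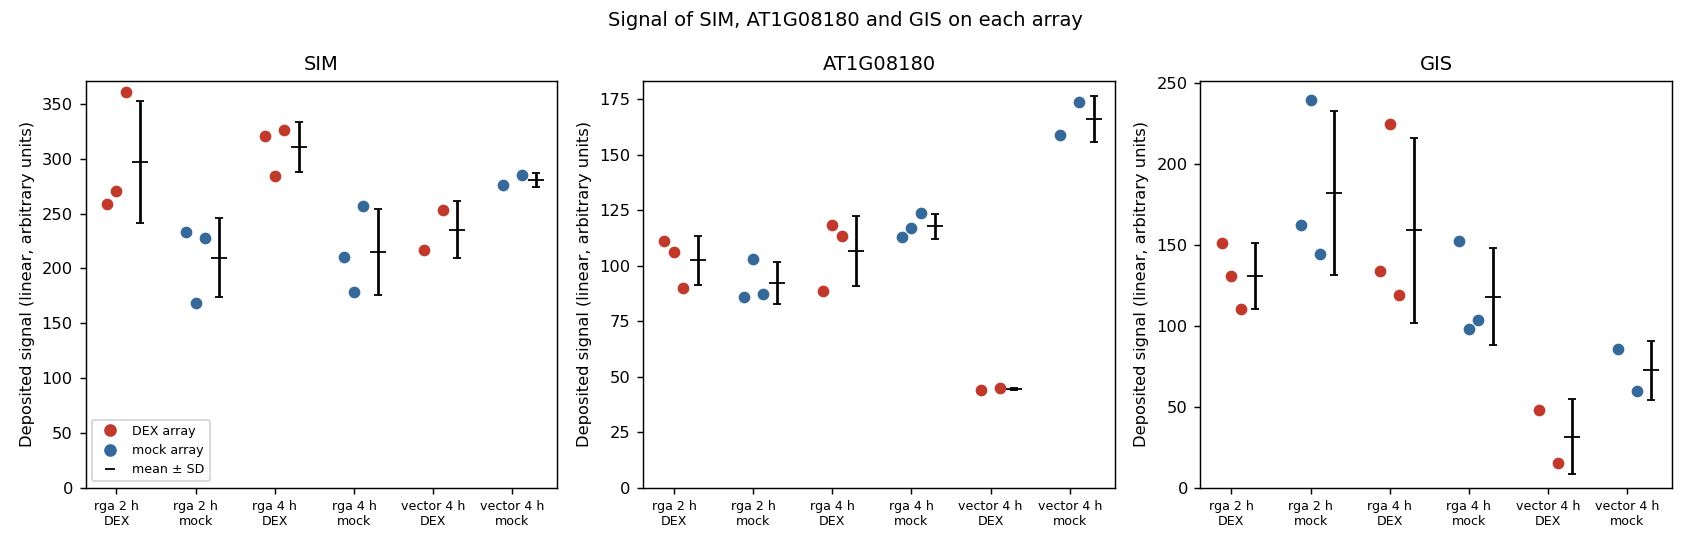
Deposited signal (linear, arbitrary units, axis from 0) of SIM, AT1G08180 and GIS on each array, by group; red points are DEX arrays, blue points mock arrays, and black marks the group mean ± SD (n = 3 in the rga line, n = 2 in the vector line). SIM's 6 rga DEX arrays lie above its 6 rga mock arrays, and AT1G08180 is lowest on both vector DEX arrays, at 44.0 and 44.8.

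In the vector line SIM did not show that rise. Its signals were 217 and 254 with DEX, against 276 and 285 in mock, so both DEX arrays lay below both mock arrays, an order that 46.3% of the probe sets tested had. The log2 change was -0.26 ± 0.21 (adjusted p = 0.339, 95% interval -0.70 to 0.18), and it was 0.01 after centring on array medians. A rise as large as the rga line's 4 h estimate lies outside the interval, although other scalings move the interval with the value.

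The 4 h DEX effect on SIM was 0.80 ± 0.27 higher in the rga line than in the vector line (adjusted p = 0.0321), where 20% of all probe sets tested were called higher and 10.5% lower. Probe sets called higher in the rga line on average and also called higher than in the vector line were 0.498% of those tested, 85 in all, and SIM was among them. The call on the difference was lost after quantile normalization (0.65, adjusted p = 0.105) and after centring on array medians (0.55, adjusted p = 0.15), without the filter on dim probe sets (adjusted p = 0.0535), and without any of 6 of the 10 arrays compared (adjusted p up to 0.118), which were rga 4 h DEX replicates 1 and 3, rga 4 h mock replicate 2, vector DEX replicate 1 and vector mock replicates 1 and 2. The mean rise within the rga line kept its call without any of the 12 arrays (adjusted p 0.00463 to 0.027).

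The mean mock level of SIM at 4 h was lower in the rga line than in the vector line, without a call. The rga 4 h mock arrays averaged 215 ± 39.2 (SD, n = 3) and the vector mock arrays 281 ± 6.30 (SD, n = 2), a log2 difference of -0.40 ± 0.19 (adjusted p = 0.158). Ordered by mean signal, SIM's groups ran from rga 4 h DEX (311 ± 22.7) and rga 2 h DEX (297 ± 55.9) through vector mock and vector DEX (235 ± 26.2) to rga 4 h mock and rga 2 h mock (210 ± 36.0). Among neighbours in this order, the arrays failed to overlap only between vector mock and vector DEX.

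AT1G08180 showed a different pattern: a marked fall with DEX in the vector line and no call in the rga line. Its vector signals were 44.0 and 44.8 with DEX, against 159 and 173 in mock. These 2 DEX values were the lowest of the series, the other 14 arrays lying at 86.1 to 173. Both vector DEX arrays lay below both vector mock arrays in 46.3% of the probe sets tested. The share lying below all other 14 arrays was not counted. AT1G08180 fell by 1.90 on the log2 scale (SE 0.26, adjusted p = 7.48e-06), so that vector mock had 3.74 times the signal of vector DEX. In that comparison 29.6% of all probe sets tested were called lower, and 5.89% fell as far or further.

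The size of this fall depends on the scaling and on the treatment of low values, while its call did not. It was -1.63 after centring on array medians, -1.29 after quantile normalization and -1.26 with an offset in place of the floor, with adjusted p of at most 0.000977 under those 3 settings. Centring also turned the balance of all calls: 58.1% of those in the vector line were then higher, against 37.4% on the deposited scale, and 42.4% of those on the difference between lines, against 65.5%. Leaving out single vector arrays gave -1.97 to -1.84. No array lay at the floor (a signal of 7.95) for AT1G08180, nor for SIM or GIS.

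In the rga line AT1G08180 had 111, 106 and 89.7 with DEX at 2 h, against 86.1, 103 and 87.3 in mock. At 4 h it had 88.4, 118 and 113 with DEX, against 113, 117 and 124 in mock. The groups overlapped at both times. The fitted changes were 0.15 ± 0.21 at 2 h and -0.15 ± 0.21 at 4 h (adjusted p = 0.849 and adjusted p = 0.812), and their mean was -0.0017 with a 95% interval of -0.32 to 0.31. That interval excludes a mean rise of the size fitted for SIM, 0.52, and also any fall as large as that in the vector line.

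For AT1G08180 the rga line's 4 h DEX effect minus that of the vector line was 1.75 ± 0.33 (adjusted p = 0.000571). It kept its call under all 10 alternative settings that gave it a value (1.15 to 1.77) and without any of the 10 arrays (1.67 to 1.88). In mock at 4 h, AT1G08180 averaged 118 ± 5.65 in the rga line (SD, n = 3) and 166 ± 10.3 in the vector line (SD, n = 2), with no overlap; in 18.3% of the probe sets tested all rga 4 h mock arrays lay below the vector mock arrays. That difference of -0.50 ± 0.24 was not called (adjusted p = 0.152), while 17.6% of the probe sets tested were, though it was called when eBayes ran without the mean-variance trend (adjusted p = 0.0321). The vector line thus held both extremes of the 6 groups, DEX being the lowest and mock the highest, with the rga groups between them at 86.1 to 124. How many of the probe sets tested had that order was not counted. Below vector mock came rga 4 h mock, rga 4 h DEX (107 ± 15.9), rga 2 h DEX (102 ± 11.2), rga 2 h mock (92.1 ± 9.33) and vector DEX (44.4 ± 0.571), and the 4 rga groups overlapped from each neighbour to the next.

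**Figure D2:**
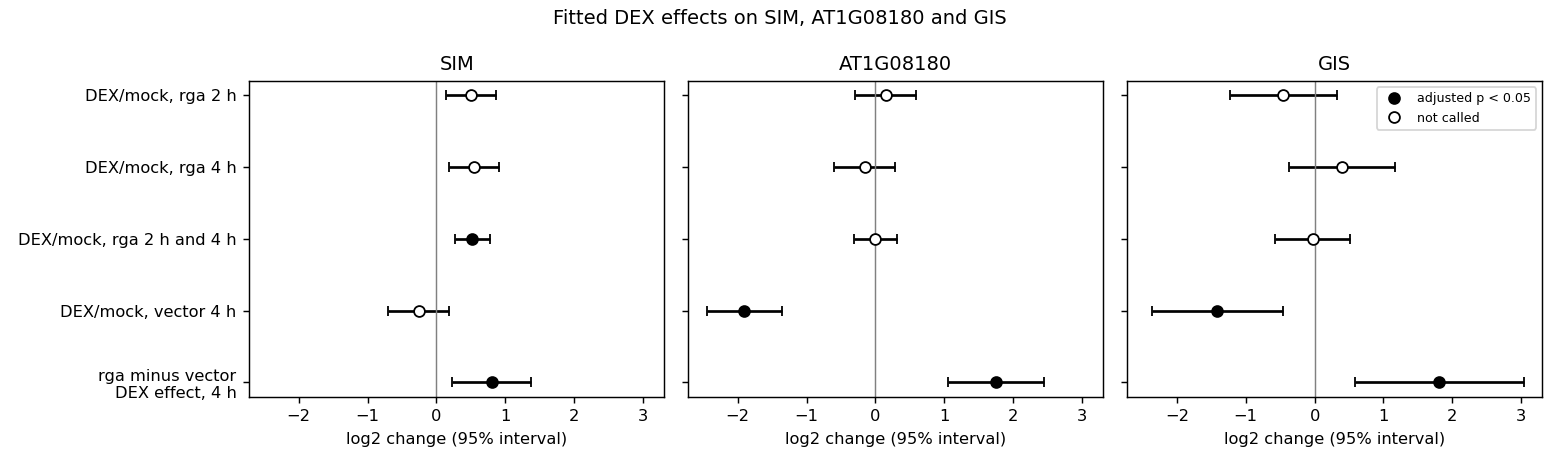
Fitted log2 changes of SIM, AT1G08180 and GIS with 95% intervals from limma, for DEX over mock in the rga line at 2 h, at 4 h and over both, for DEX over mock in the vector line, and for the 4 h DEX effect of the rga line minus that of the vector line. Filled points have an adjusted p below 0.05: SIM over both times (0.52), AT1G08180 and GIS in the vector line (-1.90 and -1.41), and all 3 genes in the difference.

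GIS, the transcription factor of the 3, was the most variable. In the vector line its signals were 47.9 and 15.0 with DEX, against 85.6 and 59.6 in mock, so the DEX arrays lay below the mock arrays. Of the probe sets tested, 46.3% had that order. The DEX arrays differed widely from each other, with an SD of 1.18 on the log2 scale, against 0.37 in mock. GIS fell by 1.41 on the log2 scale there (SE 0.45, adjusted p = 0.015, 95% interval -2.36 to -0.46), where 29.6% of the probe sets were called lower. This call rested on the lower DEX array: without vector DEX replicate 2 the change was -0.58 (adjusted p = 0.322), and without vector DEX replicate 1 it was -2.25. It was also lost without vector mock replicate 1 (-1.15, adjusted p = 0.114), after quantile normalization (-1.02, adjusted p = 0.0753) and with an offset in place of the floor (-0.66, adjusted p = 0.0581).

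In the rga line GIS had 151, 131 and 110 with DEX at 2 h, against 162, 240 and 144 in mock. At 4 h it had 134, 225 and 119 with DEX, against 153, 98.3 and 104 in mock. At each time 1 array, mock replicate 2 at 2 h and DEX replicate 2 at 4 h, lay well above the others, and the groups overlapped. The fitted changes had opposite signs, -0.45 ± 0.37 at 2 h and 0.40 ± 0.37 at 4 h, and neither was called (adjusted p = 0.67 and adjusted p = 0.68). The effect at 4 h minus that at 2 h was 0.85 ± 0.52 (adjusted p = 0.93); limma called 0.0469% of the probe sets in that comparison. Over both times the mean change was -0.03 with a 95% interval of -0.57 to 0.52, wide enough to hold a rise close to that of SIM.

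GIS signals of all 12 rga arrays (98.3 to 240) lay above those of all 4 vector arrays (at most 85.6), an order that 9.85% of the probe sets tested had; the vector line has no 2 h arrays. Ordered by mean signal, the GIS groups ran from rga 2 h mock (182 ± 50.8), rga 4 h DEX (159 ± 57.2), rga 2 h DEX (131 ± 20.5) and rga 4 h mock, whose neighbours overlapped, to vector mock and vector DEX (31.5 ± 23.3). In mock at 4 h GIS averaged 118 ± 29.9 in the rga line (SD, n = 3) and 72.6 ± 18.4 in the vector line (SD, n = 2), a log2 difference of 0.70 ± 0.41 that was not called (adjusted p = 0.247). The 4 h DEX effect was 1.81 ± 0.58 higher in the rga line than in the vector line (adjusted p = 0.024). That call was lost without vector DEX replicate 2 (0.98, adjusted p = 0.198), vector mock replicate 1 (1.55), rga 4 h DEX replicate 2 (1.53) or rga 4 h mock replicate 2 (1.69), and also after quantile normalization (1.46, adjusted p = 0.0735).

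AT1G08180 and GIS thus shared a set of calls: lower with DEX in the vector line, not called on average in the rga line, and a DEX effect at 4 h that was higher in the rga line than there. Of all probe sets tested, 16.3% had these same calls, so the set is a common one on these arrays. None of the 3 genes was called between 4 h and 2 h in mock in the rga line, where 1.54% of the probe sets were. The values there were 0.04 ± 0.17 for SIM, 0.36 ± 0.21 for AT1G08180 and -0.62 ± 0.37 for GIS.

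**Figure D3:**
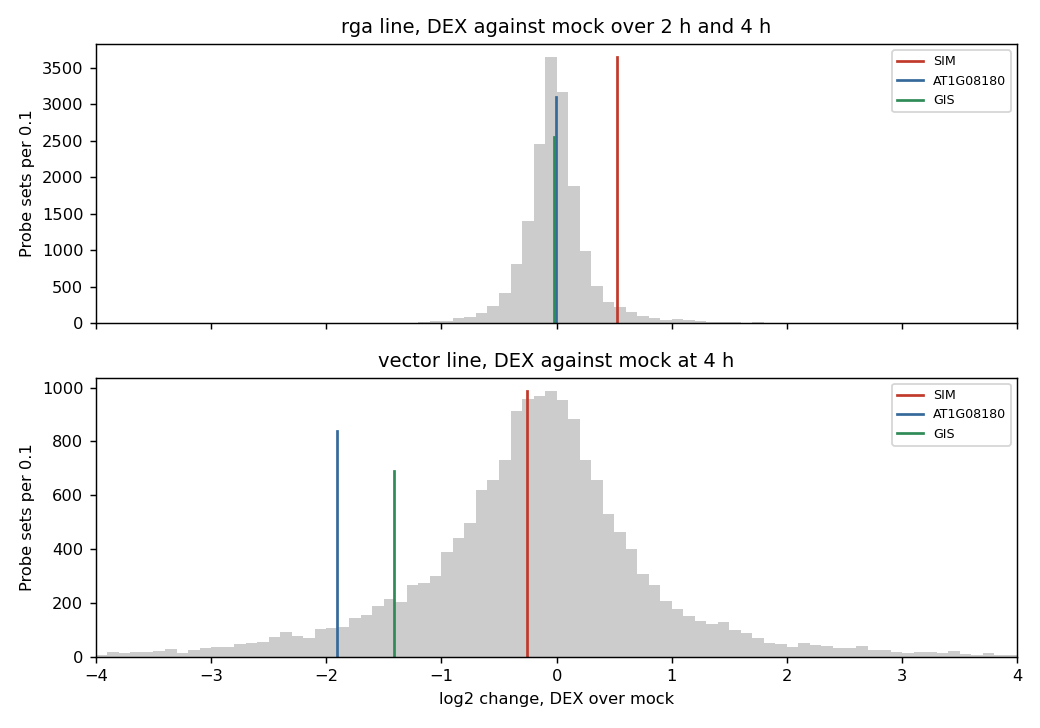
Histograms of the fitted log2 change (DEX over mock, bins of 0.1, axis cut at -4 and 4) of all 17059 probe sets tested, for the rga line over both times (top) and the vector line (bottom), with vertical lines at SIM, AT1G08180 and GIS. SIM (0.52) lies in the upper tail of the rga line's distribution, and AT1G08180 (-1.90) and GIS (-1.41) in the lower part of the much wider vector line distribution; the height of the lines has no meaning.

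Other genes of the same pathways were read from lists of 85 loci in 9 groups. Only 14 of the 85 are paired with a probe set of their own and 10 of these passed the filter, so the lists are seen in small part. No KRP gene (the other family of cyclin-dependent kinase inhibitors), no activator of trichome initiation, no mitotic cyclin or B-type kinase and no gene of the kinase core was among them. The probe table names no gene for 8730 probe sets and several genes for 503, so the array may still measure loci that are missing here. Of the 10, SIM, AT1G08180 and GIS included, 1 was called higher and none lower in the rga line over both times, and 1 was called higher and 3 lower in the vector line. Over all probe sets tested, 5.69% were higher and 3.91% lower in the first of these comparisons and 17.7% higher and 29.6% lower in the second. Their median log2 changes were 0.04 and -0.39 in these comparisons, against -0.02 and -0.15 over all.

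In the list of SIM relatives, 9 of 14 loci had a probe set and 6 were tested. SIM alone was called in the rga line over both times, and no member was called at either single time in the fit without a replicate block. In the vector line 3 were called, in both directions. AT5G40460 had 192 and 221 with DEX, against 63.4 and 74.8 in mock, a rise of 1.58 ± 0.32 (adjusted p = 0.000562). AT5G59360 had 45.3 and 30.7 with DEX, against 98.3 and 75.9 in mock, and fell by 1.21 on the log2 scale (SE 0.34, adjusted p = 0.00617). The rise of AT5G40460 kept its call under every setting run on it (1.15 to 1.85), while the call on AT5G59360 was lost after quantile normalization (-0.75, adjusted p = 0.0809) and without vector DEX replicate 2 (-0.93) or vector mock replicate 1 (-1.02). AT1G08180 is the other one that fell. SIM itself was one of the 3 not called. The 3 calls among 6, 1 higher and 2 lower, stand beside 17.7% higher and 29.6% lower over all probe sets tested, so nothing particular to the relatives is read from them.

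In the rga line AT5G40460 changed by 0.30 ± 0.19 and AT5G59360 by 0.12 ± 0.19 over both times, neither being called. AT5G02420 changed by -0.26 ± 0.24 there and by -0.28 ± 0.41 in the vector line, and AT2G28330 by 0.07 ± 0.16 and 0.24 ± 0.28. Between the lines in mock, AT2G28330 was the only one of the 6 called (1.29 ± 0.26 higher in the rga line, adjusted p = 0.00333; 1.06 and adjusted p = 0.053 without vector mock replicate 1), beside 17.6% of all probe sets tested, and it is named here after its value was seen.

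**Figure D4:**
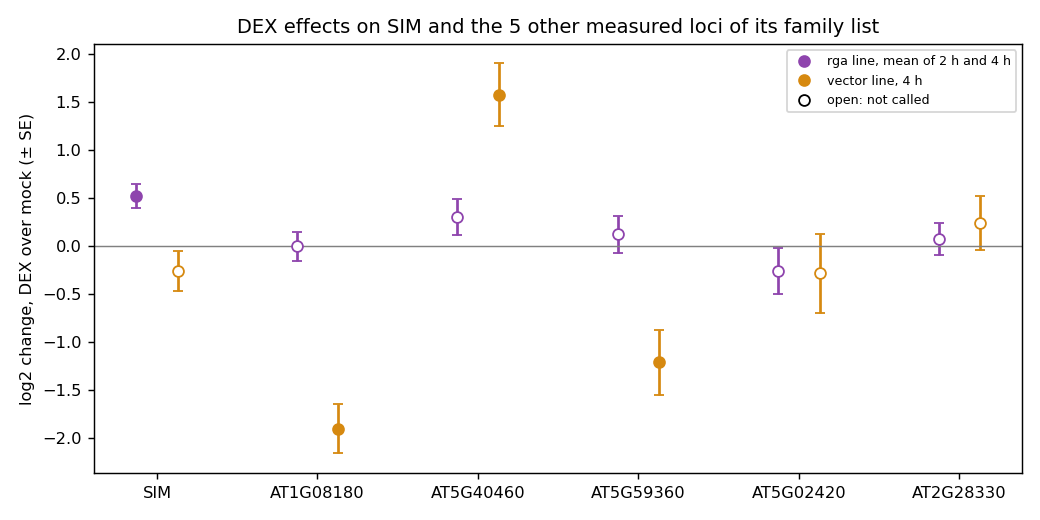
Fitted log2 change (DEX over mock, ± SE) of SIM and the other 5 tested loci of the SIM list, in the rga line averaged over 2 h and 4 h (purple) and in the vector line at 4 h (orange); open points were not called. SIM is the only filled point of the rga line, while in the vector line AT1G08180 (-1.90) and AT5G59360 (-1.21) are called lower and AT5G40460 (1.58) higher.

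Among trichome genes beside GIS, only the R3 MYB repressor gene TRY and the branching gene AN could be tested. TRY, which blocks trichome fate in neighbouring cells, changed by -0.08 ± 0.49 in the rga line over both times and by -1.15 ± 0.85 in the vector line (adjusted p = 0.29). AN, which shapes branching through the cytoskeleton, changed by -0.09 ± 0.11 and -0.03 ± 0.20. BIN4, a part of the topoisomerase complex that the endocycle needs, changed by 0.11 ± 0.25 and -0.49 ± 0.43. None of these was called in either line.

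The genes whose log2 signals followed each of the 3 most closely over the 16 arrays were found by Pearson correlation, as a description. For SIM they were ARLA1D, an ADP-ribosylation factor-like gene (r = 0.83), AT2G34200 (0.77) and AT4G17960 (0.74). ARLA1D had 1028, 921 and 1357 with DEX at 2 h in the rga line, against 934, 705 and 738 in mock. At 4 h it had 1110, 1193 and 1081 with DEX, against 752, 659 and 815 in mock, and its mean rise was 0.54. In the vector line it had 1018 and 1104 with DEX, against 935 and 937 in mock, a change of 0.18 ± 0.16 that was not called (adjusted p = 0.392). Without the vector DEX arrays its correlation with SIM was 0.901, and AT3G17090 (0.913) and AT5G11730 (0.904) came first. Over all 16 arrays the correlations of AT3G17090 and AT5G11730 with SIM were 0.35 and 0.43. Unlike SIM, both were called higher with DEX in the vector line (0.95 and 0.70).

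For AT1G08180 the closest were AT5G35970, AT1G21500 and AT4G33660 (r = 0.95 each), and for GIS they were AT3G55160 (0.95), AT2G32560 and AT1G52530 (0.94 each). AT5G35970 had 254 and 281 on the vector DEX arrays, against 898 and 1032 on the vector mock arrays, and AT3G55160 had 72.5 and 37.2, against 133 and 112. Without the vector DEX arrays, over the 14 others, these 6 correlations were 0.74 to 0.83 and other genes came first: AT3G09010 for AT1G08180 (0.94) and AT1G79080 for GIS (0.88). For AT3G09010 the correlation with AT1G08180 over all 16 arrays was -0.44. The vector DEX arrays, which stood apart over all probe sets, thus set much of which genes resemble SIM, AT1G08180 and GIS.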

How the data were processed

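Per the submitters' processing notes, the authors used MAS5 to make the deposited intensities, which are linear and give each array 1 value per probe set. No MAS5 version or detection call was used here. The trimmed mean (2% off either end) was 500.05 on every array, and this scaling was kept. For arrays, their number limits the precision.

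Signals below 7.95, the 10th percentile of the deposited table, were raised to it before log2 was taken. The 64 control probe sets and then the 25% with the lowest mean log2 were left out. One limma fit (R 4.3.3, limma 3.58.1) held 6 group means with 10 residual degrees of freedom, and eBayes used a mean-variance trend. The fit was also run on simulated normal data with the same spread in every group. Those data held neither the shift of the vector DEX arrays nor unequal group spreads, so the run could not show how the fit handles them. There were 8 comparisons. Symbols come from the probe table, updated through the RefSeq gene table (assembly TAIR10.1).

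The 3 genes and the lists were chosen with earlier results of these data known. Named were the 3 genes, up to 4 called members per list, and the 3 most correlated genes of each. The brightest probe set stood for a listed gene. Same-numbered arrays of different groups correlated in their deviations from group means at -0.09 to 0.26. For DEX and mock arrays of the rga line the range was 0.02 to 0.06 at 2 h and -0.08 to 0.26 at 4 h. Whether the numbers pair the arrays is thus not settled, and the main fit held no replicate block. Alternatives were other scalings, floors, filters and spread estimates, replicate blocks, and each array left out.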

Additional observations from a re-analysis of the deposited data

Results flagged for a closer look

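The 4 h DEX effect differed between the lines (rga line minus vector line, limma interaction) for 5 named genes. The difference was 0.80 ± 0.27 for SIM, 1.75 ± 0.33 for AT1G08180 and 1.81 ± 0.58 for GIS. It was -1.49 ± 0.42 for the SIM relative AT5G40460 (adjusted p = 0.011) and 1.30 ± 0.43 for AT5G59360 (adjusted p = 0.0297). The call was lost for AT5G40460 without vector DEX replicate 2 (-1.39) and for AT5G59360 after quantile normalization (0.87), after centring on array medians (1.04), with an offset in place of the floor (0.76), without the filter on dim probe sets, and without any of 5 arrays (1.02 to 1.23). In this comparison 20% of all probe sets tested were called higher and 10.5% lower. Groups of 2 or 3 arrays were too small for a search for single outlying arrays.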

How the results depend on the processing

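SIM's mean rise in the rga line (0.44 to 0.59) and AT1G08180's fall in the vector line (-1.97 to -1.26) and higher DEX effect in the rga line (1.15 to 1.88) kept their calls under every alternative that gave them a value; with the dimmest 50% left out, AT1G08180 and GIS were not tested. The difference between the lines was lost for SIM after quantile normalization (0.65), after centring on array medians (0.55) and without the filter (0.80), and ran from 0.68 to 0.94 without single arrays. For GIS it was lost after quantile normalization (1.46), without the filter and with only the arrays compared (1.81 in both), and ran from 0.98 to 2.65 without single arrays. The fall of GIS in the vector line was lost after quantile normalization (-1.02), with an offset (-0.66) and with only the arrays compared (-1.41), and ran from -2.25 to -0.58 without single arrays. The cause of these losses was not tested. Centring on array medians moved the median of all probe sets in the vector line from -0.15 to 0.12. Of the calls between the lines in mock 65.7% were higher, 53.7% after quantile normalization and 35.4% after centring. SIM at 4 h in the rga line ran from 0.42 to 0.68 without single arrays. With the replicate number as a replicate block it stayed at 0.54 and was called (adjusted p = 0.0454 across both lines, adjusted p = 0.0398 within line); no other result on SIM, AT1G08180 or GIS changed its call under either block, and the lines in mock could not be fitted with the block within line. Whether the replicate numbers pair the arrays is not settled. At 2 h 5 of 6 and at 4 h 3 of 6 rga arrays deviated most like the array of their own number. The median correlation of same-numbered rga DEX and mock arrays was 0.04 at 2 h and 0.11 at 4 h. For other pairs it was -0.02 and -0.03. AT1G08180 in mock between the lines was called without the mean-variance trend (-0.50). Counts of calls moved as follows. At 4 h in the rga line the 880 calls became 509 to 813 without single arrays, the DEX replicates 1 and 3 moving it most. For the DEX effect at 4 h minus that at 2 h, limma gave 8 calls, 13 with an offset, 3 to 9 without single arrays, and 0 without the filter or the trend (where 1367 and 949 had an unadjusted p below 0.05). For 4 h against 2 h in mock the 263 calls became 174 without the filter, 98 without the trend, 117 with only the arrays compared and 134 to 248 without single arrays. For the lines in mock the 2994 calls became 1907 after quantile normalization, 1888 with the dimmest 50% left out and 1016 to 3130 without single arrays, moving by over 1.5 times without rga mock replicate 1 or either vector mock array. A fit to the 12 rga arrays alone, added after the data had been seen, changed no call on the 3 genes. Signal over background could not be judged without detection calls.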
